A study of Homo sapiens with 4 samples.

Results

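H/ACA box small nucleolar RNAs (snoRNAs) were examined in small RNA sequencing libraries of HEK293T, a cell line of human embryonic kidney origin. A feature was taken as a member when its Ensembl identifier carried a GENCODE symbol starting with SNORA and a digit and when its raw counts summed to at least 40 over the 4 libraries. This left 109 of the 387 features with such a name, among 7062 small RNA features in all. A further 115 had between 1 and 39 counts and 163 had 0. Because the rule used the summed counts, the abundance of the members is given as a description and not as a result.

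All cells had been transiently transfected with a plasmid for the RPB1 subunit of RNA polymerase II. The encoded protein ended in 52 heptad repeats, which were wild type in the group called 52X WT, and in 52X T4A the threonine at the fourth position was replaced by alanine. Both groups received 1.5 µg of plasmid and 6.6 µl of polyethylenimine per well and were then held in 2.5 µg/ml α-amanitin for 72 h, a toxin that blocks the endogenous polymerase and that, per the protocol, eliminates untransfected cells. The question is what changes among small RNAs once phosphorylation of that residue is prevented. Each group had 2 libraries from total RNA, described by the submitters as biological replicates.

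H/ACA box snoRNAs fold into a pair of hairpins joined by a short hinge, the H box, and followed by a tail with the trinucleotide ACA. They assemble with dyskerin, NOP10, NHP2 and GAR1 and direct the isomerisation of chosen uridines of ribosomal RNA to pseudouridine, by pairing with the bases around the target. SNORA73A and SNORA73B (U17) are exceptions that act in the cleavage of the ribosomal RNA precursor. In human cells most are not transcribed from promoters of their own but are cut out of introns of host genes, often genes for ribosomal proteins or for noncoding snoRNA host genes (SNHG), which RNA polymerase II transcribes.

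Several sequences show what the class has in common. They are SNORA51, SNORA7A and SNORA79, which are among the abundant members, and SNORA64, SNORA10 and SNORA66, whose values are described further on. Capitals mark a match to the H box pattern ANANNA and the ACA located 3 bases before the 3′ end. The match is the one nearest the middle among stretches predicted to be mostly unpaired. Whether it lies between the hairpins was not checked. Such a match was found in 65 of the 109 members. The sequences are DNA letters of the annotated transcripts, 5′ to 3′, matched by identifier and of the same length as the deposited feature. Positions are hg38, as deposited.
SNORA51 (chr20:2655067-2655198, plus strand): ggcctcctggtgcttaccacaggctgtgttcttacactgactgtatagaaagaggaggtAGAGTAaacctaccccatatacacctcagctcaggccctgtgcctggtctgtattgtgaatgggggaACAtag
SNORA7A (chr3:12840312-12840450, minus strand): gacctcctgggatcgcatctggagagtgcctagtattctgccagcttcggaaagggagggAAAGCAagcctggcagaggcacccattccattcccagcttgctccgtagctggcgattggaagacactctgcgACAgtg
SNORA79 (chr14:20323179-20323326, minus strand): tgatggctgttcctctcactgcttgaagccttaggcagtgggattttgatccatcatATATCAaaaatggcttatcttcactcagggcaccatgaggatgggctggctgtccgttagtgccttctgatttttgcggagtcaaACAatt
SNORA64 (chr16:1962973-1963106, minus strand): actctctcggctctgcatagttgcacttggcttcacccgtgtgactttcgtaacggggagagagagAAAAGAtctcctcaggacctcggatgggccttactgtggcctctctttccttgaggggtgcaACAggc
SNORA10 (chr16:1962334-1962466, minus strand): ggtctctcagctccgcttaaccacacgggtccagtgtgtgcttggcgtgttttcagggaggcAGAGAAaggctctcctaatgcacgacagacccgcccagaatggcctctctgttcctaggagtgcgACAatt
SNORA66 (chr1:92840719-92840851, plus strand): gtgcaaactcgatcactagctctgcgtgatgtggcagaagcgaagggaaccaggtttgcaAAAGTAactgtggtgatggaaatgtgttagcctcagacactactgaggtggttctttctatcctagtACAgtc
The ACA stood exactly 3 bases before the end in 84 of the 107 members with a sequence of the listed length (78.5%). It did so in 150 of 274 SNORA features under 40 counts (54.7%), in 7 of 326 C/D box snoRNAs (2.15%) and in 76 of 4461 features that carry no SNORA name, the C/D box snoRNAs included (1.7%). The members were between 121 and 701 bases long with a median of 134, where SNORA59B was the longest. Their GC content ranged from 32.1% to 60.9%.

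The 109 members carried 76 different symbols, because copies of one snoRNA at several loci often share a symbol. RefSeq lists a named H/ACA snoRNA gene at 86 of the loci, only a numbered locus at 19 and no snoRNA at 4. Some names differ between the annotations. For example, SNORA42 on chromosome 1 is SNORA80E, SNORA34 on chromosome 12 is SNORA2C and SNORA64 on chromosome 2 is SNORA10B in RefSeq. Of the members, 88 lay inside another gene on the same strand. For 82 of these the snoRNA was in an intron of the canonical transcript, 1 (SNORA31 on chromosome 13, in TPT1) touched an exon, and 5 lay outside the canonical transcript of their host.

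The libraries held 16180790 and 27370127 counts in 52X T4A and 16195105 and 19159242 in 52X WT, in the order of replicates 1 and 2 that is used throughout. Members received between 11353 and 19115 counts per library, with a median of 27 to 48 counts per member. Replicates of a group differed by more than counting noise over the members, at 8.96 (52X T4A) and 8.35 (52X WT) in chi-square divided by its degrees of freedom. The 4 miRNAs of the kidney epithelium list summed to 1422 and 1420 CPM in 52X T4A and to 1006 and 1049 in 52X WT. CPM stands for counts scaled by TMM-corrected library size. Summed levels of the 5 muscle miRNAs were 96.5 and 81.6 against 30.5 and 33.1 CPM, and of the 3 blood miRNAs 29.9 and 40.5 against 60.9 and 48.9 CPM. The liver, myeloid and embryonic stem cell lists stayed between 0.253 and 1.01 CPM. The lists that mark fragments of longer RNAs gave 17.9 to 19.3 CPM for RN7SK, 87.7 to 108 for RN7SL1, 18.9 to 37.0 for 5.8S RNA, 295 to 400 for the U1 copies and 284 to 602 for the U2 copies. The part of these lists in the results below was not tested.

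Members made up a small share of each library. They took 0.0823% and 0.0698% of all counts in 52X T4A against 0.0786% and 0.0593% in 52X WT, so the groups overlapped and replicate 1 was the higher library in both. In bulk RNA, fewer cells that express a snoRNA and less of it per cell cannot be told apart. The means were 0.0761% ± 0.00883 and 0.0689% ± 0.0137 (SD, n = 2), a difference of 0.00715 percentage points that was smaller than the spread between replicates. No test was made, because the smallest p of an exact permutation test (two-sided) at this size is 0.333. C/D box snoRNAs are the other large class, which guide 2′-O-methylation, and are compared with the members further on.

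Abundance was very uneven. Per kilobase of annotated length, mean levels ran from 1.33 to 515 CPM per kilobase with a median of 12.4. The 5 most abundant members held 40% of all member counts and the top 10 held 56.6%, whereas 44 members had fewer than 100 counts. In the order of mean level per length, the leading members were SNORA51 on chromosome 20, SNORA51 on chromosome 2, SNORA7B, SNORA7A, SNORA74A, SNORA71D, SNORA79 on chromosome 14 and SNORA56.

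**Figure D1:**
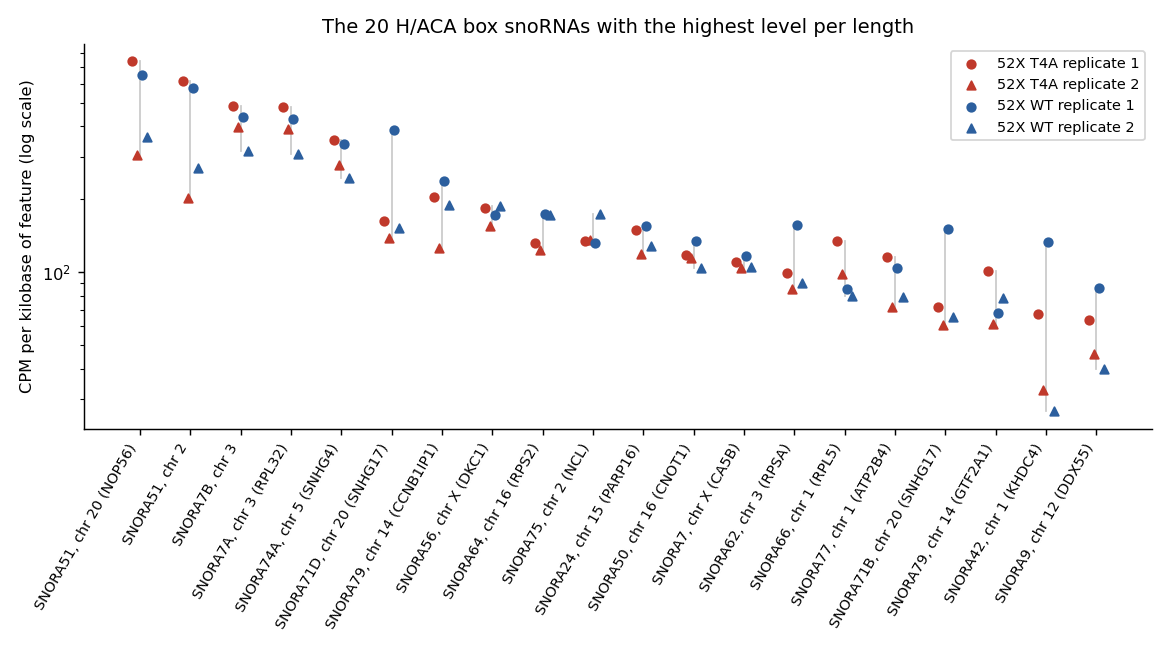
Level per length of the 20 most abundant members, in CPM per kilobase of the annotated feature on a log axis, with 1 point per library and a grey line spanning the 4 libraries. Replicates of a group (circle and triangle of one colour) often lie farther apart than the groups, for example in SNORA51 and SNORA71D.

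SNORA51 came from an intron of NOP56, which encodes a core protein of the C/D box particles. Its level per length was 741 and 304 CPM per kilobase in 52X T4A and 652 and 362 in 52X WT. Replicate 1 was the higher library in each group, and the log2 fold change of 52X T4A over 52X WT was 0.042 ± 0.44 (SE, here and below; edgeR FDR = 0.982). The copy on chromosome 2 lay in an intron of an unnamed lncRNA gene and behaved likewise, with 616 and 203 against 575 and 268 CPM per kilobase and a log2 fold change of −0.045 ± 0.52 (FDR = 0.984). The copies differ at 11 positions of the alignment, and capitals mark where the chromosome 2 copy departs from the NOP56 copy.
SNORA51 (chr2:10296047-10296180, minus strand): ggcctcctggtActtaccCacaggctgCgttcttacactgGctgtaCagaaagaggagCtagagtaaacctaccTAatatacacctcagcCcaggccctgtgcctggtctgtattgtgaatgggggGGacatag

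SNORA7A lies in an intron of RPL32, the gene of a large subunit ribosomal protein, and SNORA7B in an intron of an unnamed lncRNA gene on the same chromosome. Levels of SNORA7A were 479 and 391 CPM per kilobase in 52X T4A and 430 and 309 in 52X WT, and those of SNORA7B 485 and 397 against 435 and 316. Their log2 fold changes were 0.24 ± 0.30 and 0.23 ± 0.30 (FDR = 0.798 for both). The pair differs by 2 bases in 139, so that over most of their length a read could match both. The near-equal counts of 1054 and 1067 in 52X T4A replicate 1 may thus not be independent, which was not examined. More distant copies behaved differently in level. The copy on chromosome X in CA5B held 1212 counts in all, with 110 and 104 against 117 and 105 CPM per kilobase and a log2 fold change of −0.049 ± 0.31 (FDR = 0.981). The copy on chromosome 11 in STIM1 held 216 counts, with 13.4 and 18.0 against 30.5 and 18.6 CPM per kilobase. Both of its 52X T4A libraries were below both 52X WT libraries, by a narrow margin in replicate 2, and the log2 fold change was −0.62 ± 0.40 (FDR = 0.552). Capitals mark bases that differ from the SNORA7A sequence above, or that flank a base missing from the copy.
SNORA7B (chr3:129397210-129397348, minus strand): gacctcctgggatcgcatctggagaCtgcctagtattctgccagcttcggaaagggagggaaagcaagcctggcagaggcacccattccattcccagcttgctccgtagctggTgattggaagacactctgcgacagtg
SNORA7 (chrX:15716208-15716346, plus strand): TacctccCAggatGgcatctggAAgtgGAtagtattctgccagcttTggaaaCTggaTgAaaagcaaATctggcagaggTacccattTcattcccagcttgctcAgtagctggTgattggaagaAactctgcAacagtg
SNORA7 (chr11:3922567-3922703, plus strand): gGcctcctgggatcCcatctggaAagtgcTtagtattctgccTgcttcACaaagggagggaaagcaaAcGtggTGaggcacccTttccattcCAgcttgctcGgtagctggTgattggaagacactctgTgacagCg

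SNORA74A (U19), from an intron of SNHG4, was at 350 and 276 CPM per kilobase in 52X T4A and 337 and 245 in 52X WT. The groups overlapped and the log2 fold change was 0.11 ± 0.30 (FDR = 0.944). SNORA79 of CCNB1IP1 was at 204 and 126 against 237 and 190, with the 52X T4A replicate 1 value inside the 52X WT range, and gave −0.37 ± 0.34 (FDR = 0.680). SNORA56 and SNORA36A are both carried in introns of DKC1, which encodes dyskerin, the pseudouridine synthase of the H/ACA particle. SNORA56 was at 184 and 156 against 173 and 187 CPM per kilobase, a log2 fold change of −0.086 ± 0.30 (FDR = 0.958). SNORA36A was at 34.9 and 28.1 against 26.0 and 27, which did not overlap, and gave 0.24 ± 0.35 (FDR = 0.825).

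SNORA71D and SNORA71B of SNHG17 were abundant members with a wide gap between the 52X WT libraries. SNORA71D was at 21.9 and 18.6 CPM in 52X T4A and at 51.9 and 20.5 CPM in 52X WT. SNORA71B was at 19.5 and 16.6 against 41.1 and 17.7 CPM. Only 52X WT replicate 1 stood apart in both. The log2 fold changes were −0.84 ± 0.43 and −0.70 ± 0.41 (FDR = 0.467 and 0.511), and that of SNORA71D became −0.075 without 52X WT replicate 1. SNORA71A, from the same host, showed no such gap, with 0.505 and 1.14 against 0.891 and 0.584 CPM.

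Differential abundance was tested with edgeR's quasi-likelihood F test across the 1480 features that passed the filter on low counts, with Benjamini-Hochberg adjustment over all of them. Of the members, 106 were tested. SNORA11, SNORA11B and the feature named SNORA64 on chromosome 2 (SNORA10B in RefSeq), with 44, 41 and 40 counts, did not pass the filter. None of the 106 was called at FDR < 0.05 and a fold change above 1.5. Over all tested features 2 were called, which is 0.135%. The smallest FDR of a member was 0.421. At an unadjusted p below 0.05 there was 1 member, beside 152 tested features or 10.3%. DESeq2 also called 0 members, with 1 at an unadjusted p below 0.05.

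The precision of these 4 libraries set wide limits. The median SE of a member's log2 fold change was 0.44 and the median half-width of its 95% interval was 1.0, so that a typical interval reached about a 2-fold change in either direction. The interval included 0 for 105 of 106 members, and for 17 members it lay wholly within a 2-fold change. In simulated counts with these libraries' depth and spread, the test recovered 18.9% of 196 features changed 2-fold and 91.0% of 199 changed 4-fold. It made 3 and 10 false calls. The changed features were drawn from all tested features, and recovery was not measured for members alone. Under that setting a 2-fold difference of a single feature was seldom called, and smaller folds were not simulated.

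Fold changes of members had a median of 0.16 on the log2 scale, with quartiles of −0.17 and 0.33 and a range from −1.37 to 1.54. Of the 106 members 68 lay above 0 and 38 below, and 80 lay above 0 when libraries were scaled by size alone, 79 with upper quartile factors. The median over all 1480 tested features was −0.045, with 682 above 0. C/D box snoRNAs had a median of −0.18, with 56 of 166 tested features above 0 and none called by edgeR, beside 16 at an unadjusted p below 0.05. The median over members differed between strata of abundance, which is given as a description. It was 0.24 for the 41 tested members under 100 counts, 0.16 for the 41 with 100 or more but under 400 counts and −0.084 for the 24 with at least 400 counts, of which 8 lay above 0. Because the rule summed counts over the 4 libraries, a low member can pass it mainly through the group where it is high. The values of low members are thus not independent of the rule. Without 52X WT replicate 2 the median over all members turned to −0.028.

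**Figure D2:**
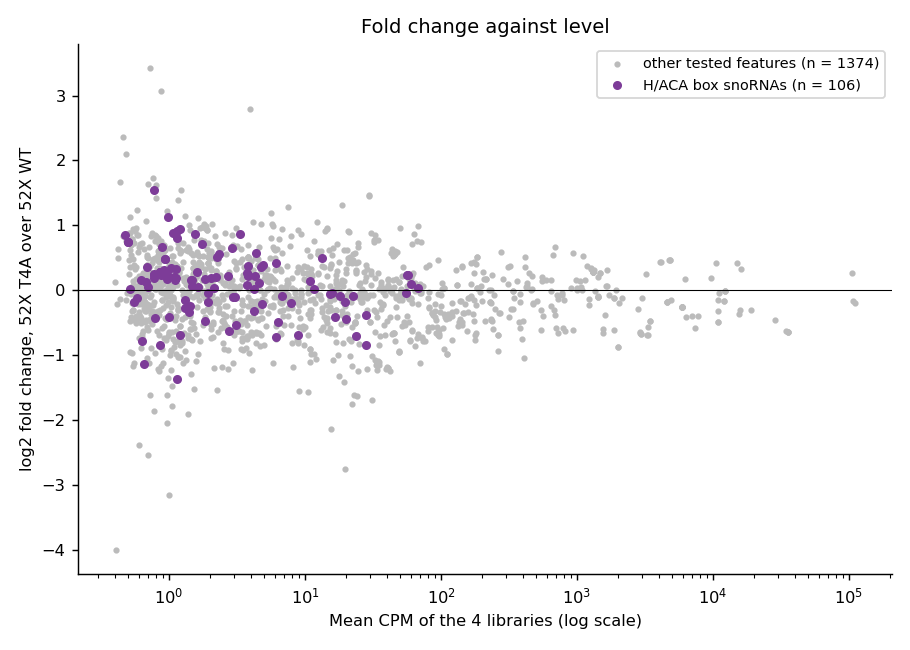
Log2 fold change of 52X T4A over 52X WT against the mean CPM of the 4 libraries (log axis) for the 1480 tested features, where purple points are the 106 tested members. Members lie within the cloud of the other features at every level, and those of low level spread from −1.37 to 1.54.

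Differences between replicates are given as a description. A replicate ratio compares single libraries, with 0.1 CPM added, and the fold change compares groups of 2 libraries. The replicate ratio would thus be the wider even with no group effect, and these values do not weigh groups against replicates. Over members, the log2 ratio between replicates had an SD of 0.54 (52X T4A) or 0.89 (52X WT), while the SD of the log2 fold change between groups was 0.48. In 89 of 106 members (84.0%) at least one group's replicates were farther apart than the group means, compared with 1034 of the 1480 tested features (69.9%). The 52X WT replicates were the wider pair, and their gap exceeded the group difference in 78 members. They were also the wider pair over all tested features, with an SD of 0.75 against 0.50 in 52X T4A. There the 52X WT gap exceeded the group difference in 895 of 1480. Replicate 1 was above replicate 2 for 72 members in 52X T4A and 66 in 52X WT, beside 847 and 797 of all tested features.

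**Figure D3:**
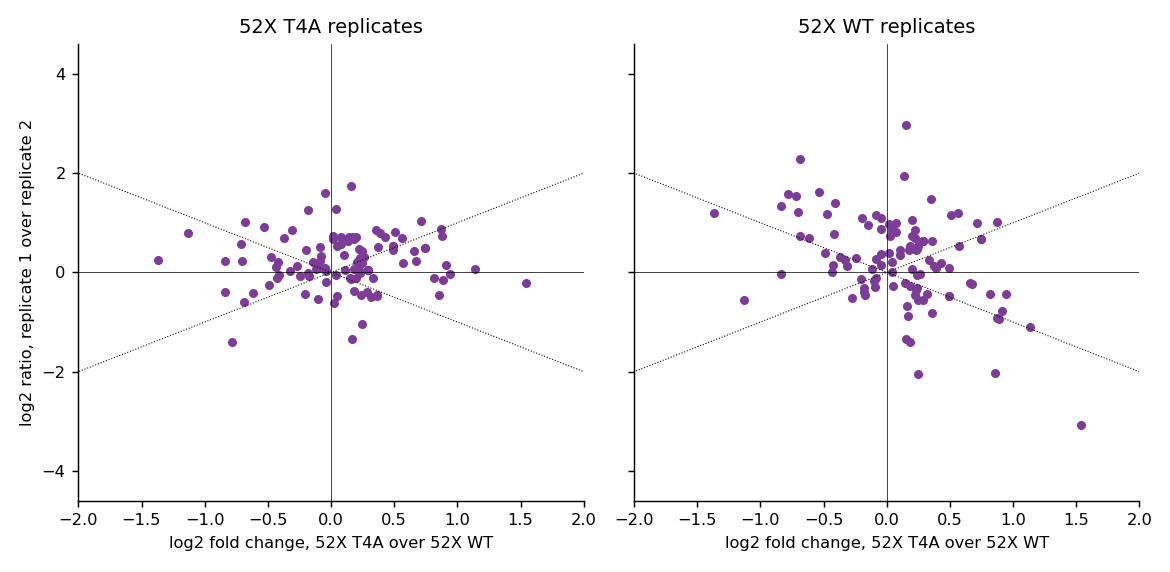
Log2 ratio of replicate 1 over replicate 2 (vertical) against the log2 fold change between groups (horizontal) for the 106 tested members, with the 52X T4A replicates at left and the 52X WT replicates at right. Points above and below the dotted diagonals have replicates farther apart than the groups, and the 52X WT ratios spread wider (SD 0.89) than the 52X T4A ratios (SD 0.54).

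Groups that do not overlap were counted as a description. Both 52X T4A libraries were above both 52X WT libraries in 19 members (17.9%), beside 18.9% of all tested features, and below them in 11 members (10.4%), beside 21.2%. The first share was near the background and the second was under it. The counts moved with the scaling of the libraries. With library size alone, 39 members were higher and 5 lower, beside 29.4% and 13.2% of all tested features. The next paragraphs give members that differed in each direction, though not every such member, and none of those given passed the test.

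SNORA20 on chromosome 8 had the largest positive value. Its counts were 17 and 40 in 52X T4A and 0 and 14 in 52X WT, that is 1.07 and 1.27 against 0 and 0.744 CPM. The log2 fold change was 1.54 ± 0.83 (FDR = 0.480), and it was 0.62 without 52X WT replicate 1. A copy on chromosome 7 (SNORA20B in RefSeq) was at 5.50 and 3.26 against 1.58 and 3.08 CPM, with a narrow margin in replicate 2, and gave 0.88 ± 0.44 (FDR = 0.467). SNORA20 of TCP1 on chromosome 6, which encodes a chaperonin subunit, overlapped between groups at 7.14 and 4.05 against 4.39 and 4.09 CPM. Its log2 fold change was 0.39 ± 0.38 (FDR = 0.716). In both copies outside TCP1 the lowest library was 52X WT replicate 1.

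SNORA70 (U70) was the largest family, with 10 members counting SNORA70B. The parent copy lies in an intron of RPL10, the gene of a large subunit ribosomal protein on chromosome X. It had 34 and 70 counts in 52X T4A and 31 and 40 in 52X WT, or 2.15 and 2.22 against 2.12 and 2.12 CPM. All 4 libraries were thus nearly equal, and the log2 fold change was 0.041 ± 0.36 (FDR = 0.981). Other copies spread in both directions around this value.

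Of the 10 members, 6 had both 52X T4A libraries above both 52X WT libraries, the RPL10 copy included by its narrow margin, and 2 had them below, beside 18.9% and 21.2% of all tested features. The copy on chromosome 21 was at 1.39 and 1.33 against 0.343 and 0.850 CPM, a log2 fold change of 1.14 ± 0.52 (FDR = 0.467). The copy on chromosome 18 was at 1.58 and 1.61 against 0.685 and 0.956 CPM and gave 0.94 ± 0.43 (FDR = 0.467). In these and in the copies on chromosomes 17, 2 (SNORA70B, in USP34) and 8, 52X WT replicate 1 was the lowest library. The last 3 gave log2 fold changes of 0.91, 0.89 and 0.81 (FDR = 0.467, 0.480 and 0.480). Without 52X WT replicate 1 the values of these 5 copies lay between 0.45 and 0.69. The copies on chromosomes 1 and 5 went the other way, at 1.26 and 1.24 against 1.71 and 1.43 CPM and at 1.26 and 1.33 against 1.71 and 1.38 CPM, with log2 fold changes of −0.33 ± 0.40 and −0.24 ± 0.40 (FDR = 0.782 and 0.856). The copies on chromosomes 12 and 19 overlapped between groups, and 52X WT replicate 1 was their lowest library too, at 0.069 and 0.411 CPM. In the RPL10 copy it was the lowest by a narrow margin, at 2.124 against 2.125 CPM in 52X WT replicate 2.

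**Figure D4:**
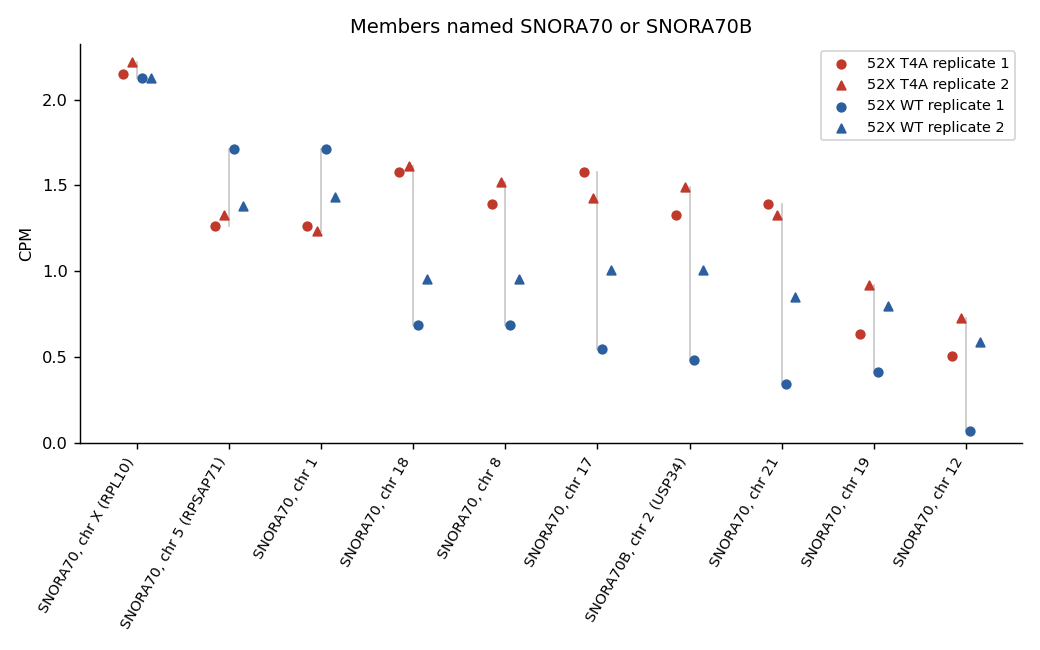
CPM of the 10 members named SNORA70 or SNORA70B in each library, ordered by total counts, with host genes in brackets where the annotation names one. The RPL10 copy is level at 2.12 to 2.22 CPM. In the copies on chromosomes 18, 8, 17, 2, 21, 19 and 12 the lowest point is 52X WT replicate 1.

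Sequences of 4 of these copies show how alike they are. The copy on chromosome 1 differs from the RPL10 copy by 9 bases (93.3% identity), that on chromosome 21 by 14 (89.6%) and that on chromosome 18 by 34 (74.8%). Capitals mark bases that differ from the RPL10 copy, which is printed first, or that flank a base missing from the copy. On chromosome 18 the changes crowd into the 5′ part, and the 3′ part is close to the other copies. Reads from the shared stretches could match several copies, so the values of these members may not be independent. Whether reads are shared was not examined.
SNORA70 (chrX:154400281-154400415, plus strand): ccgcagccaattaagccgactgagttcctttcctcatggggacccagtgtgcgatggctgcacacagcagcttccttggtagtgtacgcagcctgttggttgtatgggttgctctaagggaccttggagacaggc
SNORA70 (chr1:201978461-201978595, plus strand): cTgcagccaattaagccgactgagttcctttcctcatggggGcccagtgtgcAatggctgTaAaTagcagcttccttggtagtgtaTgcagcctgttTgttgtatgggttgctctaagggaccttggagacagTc
SNORA70 (chr21:32841861-32841995, minus strand): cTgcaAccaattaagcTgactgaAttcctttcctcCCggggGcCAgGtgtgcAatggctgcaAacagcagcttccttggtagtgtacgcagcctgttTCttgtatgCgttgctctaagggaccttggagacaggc
SNORA70 (chr18:3025434-3025566, minus strand): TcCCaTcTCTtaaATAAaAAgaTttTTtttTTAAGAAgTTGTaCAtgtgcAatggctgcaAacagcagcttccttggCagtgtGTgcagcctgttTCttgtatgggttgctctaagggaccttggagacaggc

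SNORA31 had 5 members, and all 5 lay above 0. The values were 0.87 ± 0.52 on chromosome X, 0.71 ± 0.52 on chromosome 1, 0.56 ± 0.49 on chromosome 13, 0.51 ± 0.50 on chromosome 5 and 0.20 ± 0.53 on chromosome 4, with FDR from 0.522 to 0.932. Groups overlapped in each of them, because replicate 1 was the higher library in both groups. The copy in TPT1 on chromosome 13, SNORA31B in RefSeq, was at 3.48 and 2.12 CPM in 52X T4A and 2.67 and 1.12 in 52X WT. The others followed the same order of libraries, with 71.2% to 85.9% identity between copies, for example 2.65 and 1.39 against 1.51 and 0.691 CPM on chromosome X. The copy on chromosome 13 held 55 and 67 against 39 and 21 counts, and that on chromosome 5 held 54 and 60 against 38 and 21. The values of the 5 copies may thus not be independent, and whether reads are shared was not examined. A feature outside the members but at the position of RefSeq's SNORA31 gave 14.5 and 10.8 against 8.70 and 7.76 CPM, which did not overlap, and a log2 fold change of 0.62 ± 0.34 (FDR = 0.484).

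Other members with higher 52X T4A libraries came as single genes or as features with equal counts. SNORA1 of TAF1D and its copy on chromosome 8 held the same counts, 12 and 16 against 7 and 5, and gave 0.74 ± 0.58 (FDR = 0.617). SNORA46 of CNOT1, a subunit of the deadenylase complex CCR4-NOT, was at 4.11 and 3.01 against 2.06 and 2.39 CPM and gave 0.66 ± 0.37 (FDR = 0.491). SNORA50 from the same host was at 15.7 and 15.3 against 18.1 and 13.9 CPM, with a log2 fold change of −0.042. SNORA52 of RPLP2, the gene of a ribosomal stalk protein, was at 5.56 and 4.88 against 4.18 and 2.87 CPM and gave 0.57 ± 0.36 (FDR = 0.548). SNORA66 of RPL5 was the most abundant member with this order. It had 284 and 413 counts against 166 and 200, or 17.9 and 13.1 against 11.4 and 10.6 CPM, and its log2 fold change was 0.49 ± 0.33 with a 95% interval from −0.26 to 1.24 (FDR = 0.577).

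Among members with lower 52X T4A libraries, SNORA10 and SNORA64 share a host, RPS2, which encodes a small subunit ribosomal protein, and both were lower in 52X T4A without overlap. SNORA64 (U64) was well covered, with 281 and 521 counts against 339 and 433. At 17.8 and 16.5 against 23.2 and 23.0 CPM the replicates were close, and the log2 fold change was −0.43 ± 0.30 with a 95% interval from −1.11 to 0.25 (FDR = 0.584). SNORA10 had only 9 and 9 against 10 and 20 counts, which is 0.569 and 0.285 against 0.685 and 1.06 CPM, and gave −1.13 ± 0.56 (FDR = 0.467). Without 52X WT replicate 1 they were −0.48 and −1.46, but SNORA10 was −0.71 without 52X T4A replicate 2 and −0.79 without 52X WT replicate 2.

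SNORA13, hosted by the lncRNA gene EPB41L4A-AS1, was at 0.505 and 0.697 against 1.10 and 1.12 CPM and gave −0.84 ± 0.47 (FDR = 0.491). SNORA38 of PRRC2A was at 0.695 and 1.11 against 1.92 and 1.12 CPM, where replicate 2 of the groups was nearly equal, and gave −0.69 ± 0.47 (FDR = 0.584). SNORA3 of RPL27A (SNORA3A in RefSeq) was at 4.80 and 5.73 against 8.43 and 6.43 CPM and gave −0.49 ± 0.35 (FDR = 0.584). SNORA14A of POR was at 0.632 and 0.697 against 0.959 and 0.850 CPM and gave −0.43 ± 0.47 (FDR = 0.741). None of these 4 passed the test.

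The remaining members known by role or host overlapped between groups. SNORA62 (E2), from an intron of RPSA, was at 15.2 and 13.1 against 23.9 and 13.9 CPM with a log2 fold change of −0.42 ± 0.36, and SNORA6 from the same gene gave −0.41 ± 0.56. SNORA63 (E3) of EIF4A2 was at 5.37 and 3.20 against 5.62 and 2.81 CPM, a log2 fold change of 0.016 ± 0.44, and its copy in OSCP1 gave 0.076 ± 0.44. SNORA73B (U17B) of SNHG3 was at 3.79 and 5.13 against 4.93 and 5.42 CPM and gave −0.21 ± 0.35. SNORA75 of NCL, the nucleolin gene, was at 18.4 and 18.7 against 18.2 and 23.9 CPM and gave −0.18 ± 0.31. SNORA24 of PARP16 (SNORA24B in RefSeq) gave −0.082 ± 0.32 and SNORA23 of IPO7 −0.15 ± 0.47. The SNORA21 features of RPL23 gave −0.18 ± 0.49 and 0.075 ± 0.46. FDR values of these members ranged from 0.663 to 0.994.

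Host genes were grouped by kind to describe the members further. The 18 members in ribosomal protein genes had a median log2 fold change of 0.045, with 10 above 0, 3 higher and 3 lower without overlap (16.7% each, beside 18.9% and 21.2% of all tested features). The 15 in SNHG or other lncRNA genes had a median of 0.16, with 9 above 0, 0 higher and 2 lower without overlap (13.3%, beside 21.2%). The 4 in translation factor genes had a median of −0.15 with 2 above 0, and the 48 tested in other protein-coding genes a median of 0.15 with 30 above 0, 8 higher (16.7%) and 4 lower (8.33%). The 20 tested members with no annotated host on the same strand had a median of 0.35 with 17 above 0, and 8 were higher without overlap (40%, beside 18.9% of all tested features) and 1 lower (5%, beside 21.2%). Those 8 higher members comprise SNORA70 and SNORA20 copies, SNORA43 and the copy of SNORA1 on chromosome 8, whose counts are mostly low. Low members can pass the rule of 40 summed counts mainly through the group where they are high. The share of higher members in this host group is thus a description only. No member of any host group was called.

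**Figure D5:**
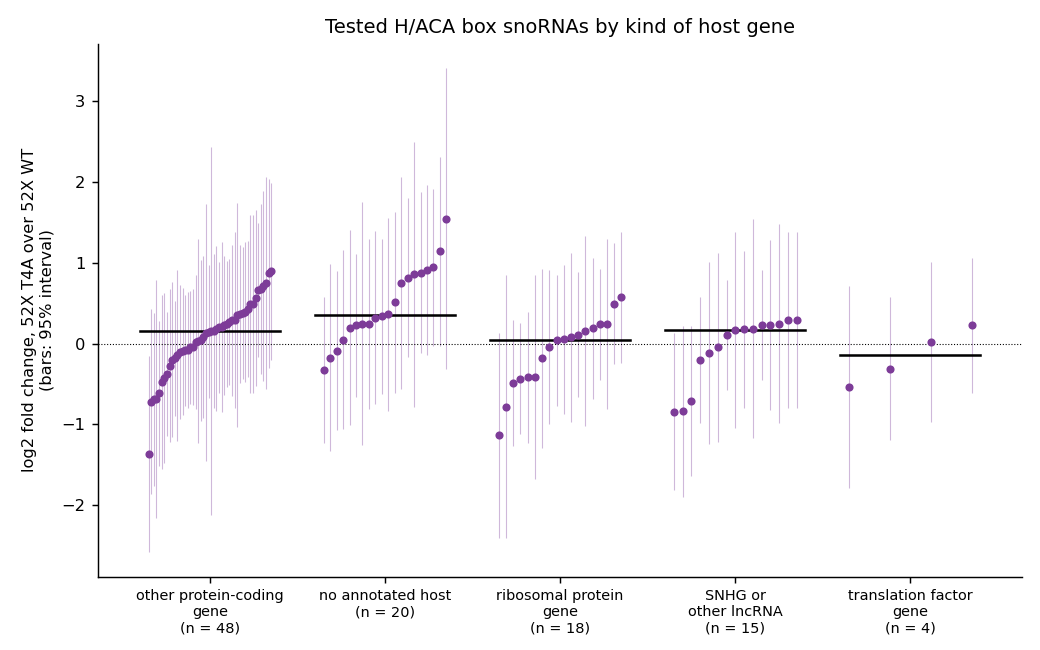
Log2 fold change of each tested member with its 95% interval, ordered within kinds of host gene, where the black line is the median of the group. Nearly all intervals cross 0, and the medians run from −0.15 (translation factor genes, n = 4) to 0.35 (no annotated host, n = 20).

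Members of one host did not always go together. In TAF1D, which encodes a subunit of the RNA polymerase I factor SL1 and carries 4 members, the log2 fold changes were 0.74 for SNORA1, 0.22 for SNORA32, −0.27 for SNORA8 and −0.48 for SNORA18. SNHG17 gave −0.84, −0.70 and 0.24. In RPL27A, SNORA3 was at −0.49 ± 0.35 and SNORA45 at 0.11 ± 0.34. In EIF4A2, SNORA81 was at −0.53 ± 0.55 and SNORA63 at 0.016 ± 0.44. CNOT1, DKC1 and RPL23 also held 1 member on each side of 0. In RPS2, RPSA, SNHG4 and KANSL2 both members lay on the same side. No difference between members of a host was tested.

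Some members held nearly the same counts as another feature, and whether the reads behind them are shared was not examined. Within 5% or 2 counts in every library, 13 members fell into 6 sets, namely the SNORA1 pair, SNORA7A and SNORA7B, the 3 SNORA22 copies, SNORA36A and SNORA36C, SNORA59A and SNORA59B, and the SNORA72 pair. Counting each set once left 102 members, and the 99 of them that were tested had a median log2 fold change of 0.13. Annotated miRNAs overlap 5 members on the same strand. MIR664A held 381 counts beside 399 for SNORA36B (95.5%), MIR1248 held 211 beside 222 for SNORA81 (95%) and MIR1291 held 72 beside 77 for SNORA34 (93.5%). For SNORA36A and MIR664B the share was 62.5%, and for SNORA84 and MIR3651 it was 8.74%. The counts of SNORA36B, SNORA81 and SNORA34 were thus nearly equal to those of a miRNA of the same locus.

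Small Cajal body RNAs (scaRNAs) of the H/ACA kind belong to the same particle and modify spliceosomal RNAs. Of the fixed list 15 features were tested, with a median log2 fold change of 0.080, 8 above 0 and none called by edgeR, beside 3 at an unadjusted p below 0.05. The most abundant was a feature named SCARNA15 with 102892 counts, more than the 56519 of all members together. It was at 1463 and 1349 CPM in 52X T4A and 1117 and 1107 CPM in 52X WT, which did not overlap, and its log2 fold change was 0.34 ± 0.20 (FDR = 0.521).

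The edge of the member rule was set at 40 counts. Just inside it were both SNORA1 features and the feature named SNORA64 on chromosome 2 with 40 counts each. SNORA11B had 41, SNORA74B 42, and SNORA49 and a SNORA70 copy 43. The nearest feature outside was a SNORA3 copy on chromosome 16 with 37 counts, 5 and 16 in 52X T4A and 4 and 12 in 52X WT. Another 8 features with at least 40 counts had an H/ACA name only through an identical RefSeq position and were not members. Among them, SNORA50A overlaps the member SNORA50 and held the same counts in every library, so it is not a further locus. The 8 also include SNORA44 with 1517 counts and SNORA24 on chromosome 4 with 1510. That SNORA24 feature held 323 and 523 counts in 52X T4A and 319 and 345 in 52X WT. The member SNORA24 of PARP16 held 310 and 492 against 297 and 317, and whether reads are shared was not examined. The log2 fold changes of the 8, with SNORA50A counted, had a median of −0.15 with 2 above 0.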

How the data were processed

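Small RNA sequencing libraries of 2 groups with 2 biological replicates each were analysed. The authors deposited raw counts per small RNA feature, 1 table per library, with no normalization. The submitters' processing notes name cutadapt 4.6, Bowtie2 2.3.5.1, featureCounts 1.5.0 and hg38, and the settings, including the treatment of reads that match several features, are not given in the sources used here. Symbols came from GENCODE v44lift37 by identifier (5578 of 7062 features) or from an identical RefSeq position of GRCh38.p14. Sequences and hosts came from GENCODE v44lift37, and predicted unpaired bases from RNAfold 2.7.2. Counts were tested with edgeR 4.0.16 in R 4.3.3 (filterByExpr at a minimum of 10, TMM factors, quasi-likelihood F test, intercept and group), and a feature was called at FDR < 0.05 and a fold change above 1.5. DESeq2 1.42.0, other scalings, other filters, a replicate block and the removal of each library were alternatives. The SE is the size of the log2 fold change divided by the square root of F. The test was tested on simulated data.

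The members, the gene lists and the tests were chosen with earlier results of these data known. Named were the 8 members of highest level per length, up to 8 with the largest positive or negative log2 fold change among those without overlap that averaged 10 counts or more, members known by role, families, and those at the edge of 40 counts. SNORA75, SNORA52, SNORA46, SNORA66, SNORA50, SNORA6 and other members outside this rule were chosen after their values were seen. The values of 1 member are not reported here.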

Additional observations from a re-analysis of the deposited data

How the results depend on the processing

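No member was called by edgeR or DESeq2 in the reported fit or under any alternative except the one without 52X WT replicate 2, where 8 members were called (range over the libraries left out 0 to 8). Among them were SNORA20 on chromosome 8, SNORA42 on chromosome 1, SNORA53, SNORA71B, SNORA71D and the SNORA70 copies on chromosomes 12 and 21. In that fit the lone 52X WT replicate 1 is assumed to vary like the 52X T4A libraries, and the cause was not tested. Over all features the count of calls, 2 as reported, became 9 with library size alone, 29 with no filter, 28 with DESeq2 and 18 with the replicate block, and it ranged from 0 (without 52X WT replicate 1) to 231 (without 52X WT replicate 2). With the replicate block 0 members were called and their median log2 fold change was 0.17. The log2 CPM deviation of replicate 1 from its group mean was compared between the groups across features. These deviations correlated at 0.0946 over all tested features and 0.319 over members. With 2 pairs the numbers are not shown to pair the libraries.

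The median log2 fold change of members, 0.16, was 0.33 with library size alone and −0.084 for members with at least 400 counts, and without each library it ranged from −0.028 to 0.23. Scaling moved the median of all features from −0.045 to 0.14 (library size alone) or 0.13 (upper quartile), and the members' median stood 0.19 to 0.22 above it under each scaling tried. That gap, 0.20 as reported, shrank to 0.11 without 52X T4A replicate 1 and to 0.040 without 52X WT replicate 2, beside an SD of 0.17 between replicates in the median member level. The count of members without overlap, 30, became 47 with upper quartile factors, of which 40 were higher and 7 lower, beside 28.6% and 15.1% of all tested features under the same factors. Adding the features named by RefSeq position except SNORA50A, added after seeing the data, gave a median of 0.14.

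Named members near 0 changed sign. With upper quartile factors and with library size alone respectively, SNORA51 on chromosome 2 was at 0.13 and 0.096, SNORA56 at 0.071 and 0.081, SNORA24 at 0.085 and 0.090 and SNORA23 at 0.035 and 0.046. SNORA51 on chromosome 20 was at −0.033 with the replicate block.
Leaving out 1 library at a time also turned the sign of further values, which then ranged as follows: SNORA51 on chromosome 20 from −0.74 to 0.46, SNORA51 on chromosome 2 from −1.05 to 0.53, SNORA74A on chromosome 5 from −0.11 to 0.30, SNORA24 on chromosome 15 from −0.25 to 0.0057, SNORA63 on chromosome 3 from −0.42 to 0.53, SNORA63 on chromosome 1 from −0.37 to 0.60, SNORA81 on chromosome 3 from −1.17 to 0.44, SNORA70 on chromosome X from −0.069 to 0.061, SNORA31 on chromosome 5 from −0.012 to 1.15, SNORA21 on chromosome 17 from −0.94 to 0.31, SNORA21 on chromosome 17 from −0.33 to 0.50, SNORA23 on chromosome 11 from −0.60 to 0.39, SNORA31 on chromosome 4 from −0.32 to 0.80, SNORA70 on chromosome 19 from −0.046 to 0.95.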
